A study of Danio rerio with 10 samples.

Results

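The genes for the proteins of the cytosolic ribosome were followed from zebrafish gametes to the blastula. They were taken as every gene whose symbol, case ignored, is rpl or rps followed by a whole number, with or without a letter after it. To these rplp0, rplp1, rplp2 and rpsa were added. Kinases named rps6k and paralogues with l1 or like endings were left out. The rule found 65 of the 32574 genes of the deposited table, 37 of the large ribosomal subunit and 28 of the small one. Of these, 6 gene IDs form 3 pairs that carry the same symbol, among them RPL5 and RPS26, and such copies are named here with their Ensembl ID. The symbols rplp2 and rpsa matched no row used here. Neither did RPL13, RPL14, RPL24, RPS3 and RPS18, among others. The 65 members are thus not the full set of ribosomal proteins, and shares and subunit ratios below cover only the genes found. RPSA2, RPS4Y2, RPL36AL, rplp2l, rps27.1 and rps27.2 have symbols close to those of ribosomal proteins, and their orthology was not checked here. They are outside the rule, so the shares and subunit sums below leave them out.

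RNA of Danio rerio was sequenced from sperm cells, oocyte cells and embryos of 1-cell, 4-cell, 16-cell, 64-cell, 128-cell, 256-cell, 1000-cell and sphere stage, the last a blastula that follows the 1000-cell embryo. The labels name no strain, genotype, treatment or number of pooled animals, so the groups differ only in cell type or stage as far as stated. Each stage has 1 library. No difference between stages therefore has a replicate check, and the 95% intervals given with folds cover counting error only. Levels are in RPKM, that is, read counts divided by gene length and by library size. A comparison between genes therefore rests on the lengths of their gene models.

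A ribosome has a small subunit, which holds the messenger RNA and reads its codons, and a large subunit, which joins amino acids and releases the growing chain through a tunnel. Each subunit is ribosomal RNA covered by many proteins, most of them present in a single copy, so cells make them in roughly matched amounts. In vertebrates their mRNAs begin with a pyrimidine tract, the TOP motif, through which the TOR kinase and the RNA-binding protein LARP1 control translation and stability. The fish egg carries a store of maternal ribosomes and mRNA on which the embryo lives until its own genome is switched on around the midblastula stages.

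Reads behind the values ranged between 37762530 (1-cell) and 113972795 (4-cell), so that 3 reads in a gene of 1 kilobase amounted to between 0.0263 and 0.0794 RPKM. The markers of the sperm library went beyond sperm: all 9 listed genes of testis somatic cells stood at 1 RPKM or more in it, against 1 of 9 in the oocyte library. Their median was 62.2 RPKM in sperm, against 0.0664 RPKM in the oocyte, with insl3, a Leydig cell hormone, at 430.2 RPKM in sperm and listed at 0 in the oocyte. All 7 listed sperm and spermatid genes were also above 1 RPKM in sperm. The oocyte library held all 9 listed oocyte markers at 1 RPKM or more, and also the 6 listed epithelial genes, at a median of 56.1 RPKM that was 0.148 RPKM in the 1-cell library. In the sperm library 4 of these 6 stood at 1 RPKM or more, with a median of 18.7 RPKM over the 6. The 16-cell library stood apart from its neighbours: 56.1% of the 12749 genes measured there lay above both the 4-cell and the 64-cell value, and 19.9% lay below both.

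Ribosomal protein mRNAs were abundant in every library, highest in sperm as deposited, and lower in late than in early cleavage embryos. The median member stood at 810.0 RPKM in sperm, 237 in the oocyte, and 213, 197, 143, 122, 95.9, 81.2, 79.7 and 87.1 RPKM in the 8 embryo libraries from 1-cell to sphere. The 65 genes together made up 11.8% of the RPKM total of the sperm library and 3.67% of that of the oocyte. Their share in the embryos was 3.38%, 3.62%, 2.57%, 2.45%, 2.12%, 1.77%, 1.69% and 1.83% from 1-cell to sphere. The share was thus lowest in the 1000-cell embryo. The members' recovered reads, not weighted by length, were 5.85% of the library size behind the RPKM values in sperm and 0.626% in the 1000-cell embryo.

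**Figure D1:**
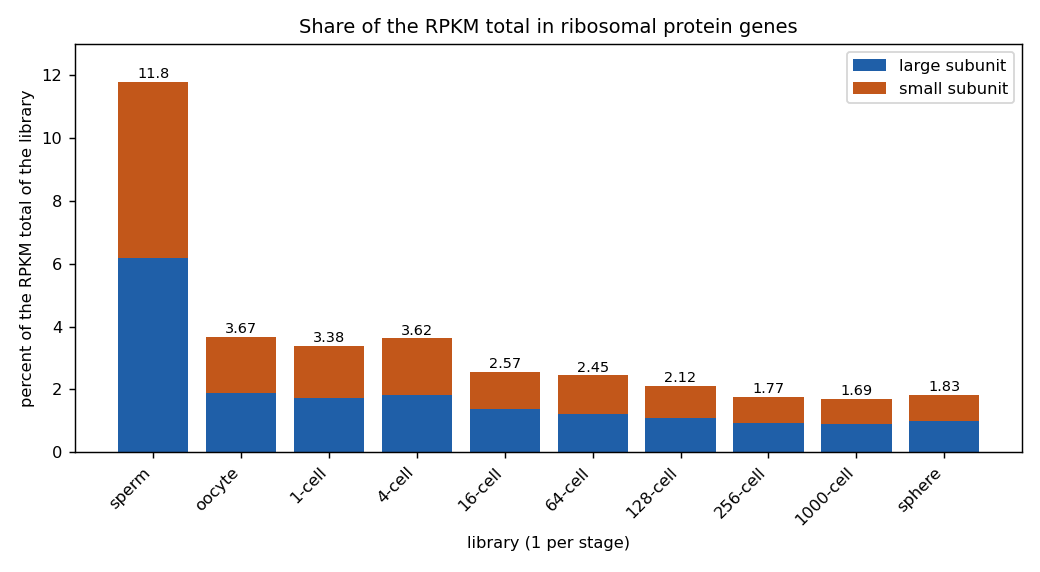
Share of the RPKM total of each library (percent, vertical axis) in the 37 large subunit genes and the 28 small subunit genes, stacked, with 1 library per stage. The bar stands at 11.8% in sperm, 3.67% in the oocyte and between 1.69% and 3.62% in the embryos, and the blue and orange parts are of nearly equal height in every library.

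Sperm was the highest library for 63 of the 65 members as deposited, and for 34 with median ratio scaling, which put 31 highest in the 1-cell embryo. That scaling divides each library by the median ratio of its genes to their geometric mean over libraries. Taken over only the genes at 1 RPKM or more in every library, it put 63 highest in sperm and 2 in the 1-cell embryo. That choice of genes was made after seeing the data. The exceptions in the deposited values were RPL12, highest in the 4-cell embryo, and RPL29, highest in the 1-cell embryo. With sperm set aside, 35 members were highest in the oocyte, 19 in the 4-cell and 8 in the 1-cell embryo, whereas with median ratio scaling 3 were highest in the oocyte, 0 in the 4-cell and 61 in the 1-cell embryo. The lowest library was the 1000-cell embryo for 35 members, 256-cell for 13, sphere for 10, 128-cell for 6 and the oocyte for 1, and with that scaling the 1000-cell embryo was lowest for 47. Counts of highest and lowest library over all genes are not given here, so those of the members do not set them apart. Most members followed the median profile of the members over the 10 libraries, with a Pearson r of 0.9 or more for 59 of 65. That profile is taken over these same members, so part of the agreement is built in. The r is a description over libraries that share their scaling, and the same count over all genes is not given here.

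**Figure D2:**
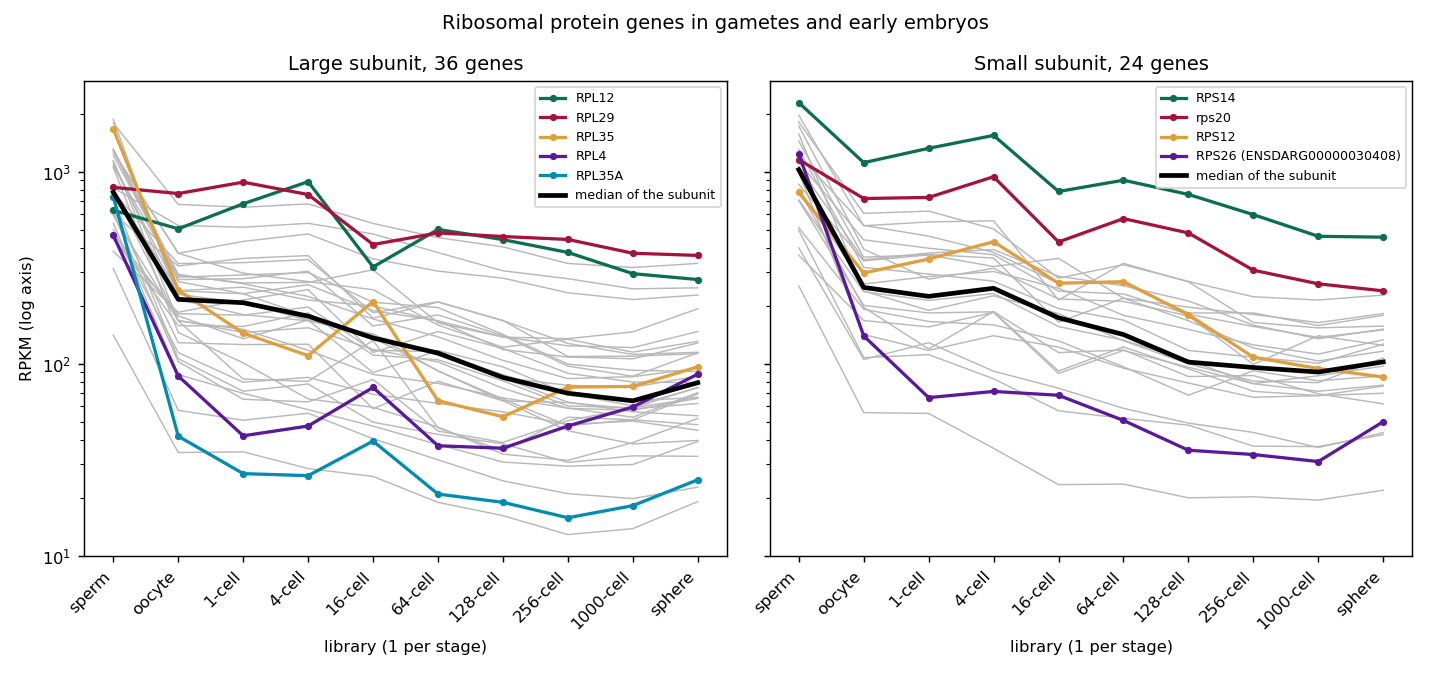
Level of 60 of the 65 members (RPKM, log axis) in the 10 libraries, in grey, with the large subunit on the left and the small subunit on the right. Named members are coloured and the black line is the median over all members of the subunit; RPL12 and RPL29 are not highest in sperm, as deposited.

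Levels differed widely among genes whose proteins are needed in like numbers. RPS14, a platform protein of the small subunit, was the most abundant member in every library, with 2289.5 RPKM in sperm, 1115 in the oocyte, and 1324, 1546, 789, 903, 761, 597, 461 and 456 in the 8 embryo libraries from 1-cell to sphere. It alone held between 3.74% (sperm) and 8.86% (4-cell) of the members' summed RPKM. By mean log2 level the next 5 were RPL29, rpl32, rps20, RPL12 and RPL5 (ENSDARG00000015862). Among the lowest 6 were RPL22, RPL31, RPS24, RPL35A and RPL13A. RPL13A, a large subunit protein, had 141 RPKM in sperm, 34.5 in the oocyte, and 34.7, 28.4, 25.9, 18.97, 16.2, 12.9, 13.8 and 19.1 in the 8 embryo libraries from 1-cell to sphere. Its recovered gene model is the longest among the members, 6931 bases, against 315 bases for RPL29, the shortest. In sperm RPL13A had 38703 reads, against 10336 for RPL29, so the order by reads differs from the order per length. Over the 65 members, model length and mean log2 level had a Pearson r of -0.49.

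The order of the members was kept from stage to stage in the embryo more than between the gametes. Spearman's rho over the 65 members was 0.65 for sperm and oocyte, 0.97 for 1-cell and oocyte, 0.97 for 128-cell and 1-cell, and 0.96 for 1000-cell and 128-cell. The points share their gene lengths and scaling, and the values are descriptions. The 16-cell library gave a rho of 0.91 with each of its neighbours.

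Among the members, which lack some proteins of each subunit, the large subunit genes exceeded the small subunit genes in summed RPKM by at most 1.18-fold. Summed RPKM of the 37 large subunit genes over that of the 28 small subunit genes was 1.0997 in sperm, 1.05 in the oocyte, and 1.03, 1.00, 1.14, 1.01, 1.05, 1.15, 1.18 and 1.18 from 1-cell to sphere. The ratio of medians ran the other way, since the large subunit sum holds more genes: 0.763 in sperm, 0.867 in the oocyte, and between 0.708 (1000-cell) and 0.926 (1-cell) in the embryos. The median large subunit gene thus stood below the median small subunit gene in all 10 libraries.

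Sperm against oocyte compares the gamete libraries, each of which also held markers of other cell types. Every member was higher in sperm as deposited, where 72.1% of the 17364 measured genes were. Median ratio scaling left 56 members higher and 9 lower, where 9443 of all genes were higher and 7052 lower. As deposited, 59 of 65 were higher by 2-fold or more and 0 lower, where 57% of measured genes were higher and 17.3% lower. The median change, as a difference of log2(RPKM + 1), was 2.001 for the members and 1.22 for all measured genes. It was 2.11 for large subunit genes, 32 of 37 of them higher by 2-fold, and 1.92 for small subunit genes, 27 of 28. All 65 were higher beyond counting error, as were 70.2% of the 17177 measured genes with recovered reads. Of those genes 4568 were lower beyond counting error, so a difference of that kind was common among all genes. The markers of testis somatic cells named above moved with this difference. Their part in it was not tested, and in bulk RNA fewer cells of a type and less RNA per cell cannot be told apart.

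The size of the difference varied among members. RPL35A, a large subunit protein mutated in some human patients with Diamond-Blackfan anaemia, had 741 RPKM in sperm, against 41.9 RPKM in the oocyte, 17.7-fold higher (17.1 to 18.3). At the mRNA exit, RPS26 (ENSDARG00000030408) had 1235 RPKM in sperm, against 139.6 RPKM in the oocyte, 8.85-fold higher (8.52 to 9.19). Both were among the 3 most unequal between the gametes. At the other end, RPL29 had 829 RPKM in sperm, against 769.6 RPKM in the oocyte, 1.08-fold higher (1.05 to 1.105). RPL12, at the base of the stalk, had 629.8 RPKM in sperm, against 504 RPKM in the oocyte, 1.25-fold higher (1.23 to 1.27). RPL5 (ENSDARG00000015862) was 1.57-fold higher (1.54 to 1.59). With median ratio scaling these 3 were lower in sperm, by log2 differences of -1.08 for RPL29, -0.87 for RPL12 and -0.54 for RPL5 (ENSDARG00000015862). Taken over only the genes at 1 RPKM or more in every library, that scaling left these 3 higher in sperm. The members least unequal were thus among the most abundant in the oocyte, and over all 65 members the oocyte level and the sperm minus oocyte change had a Pearson r of -0.50, a description in which the oocyte value enters both measures.

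**Figure D3:**
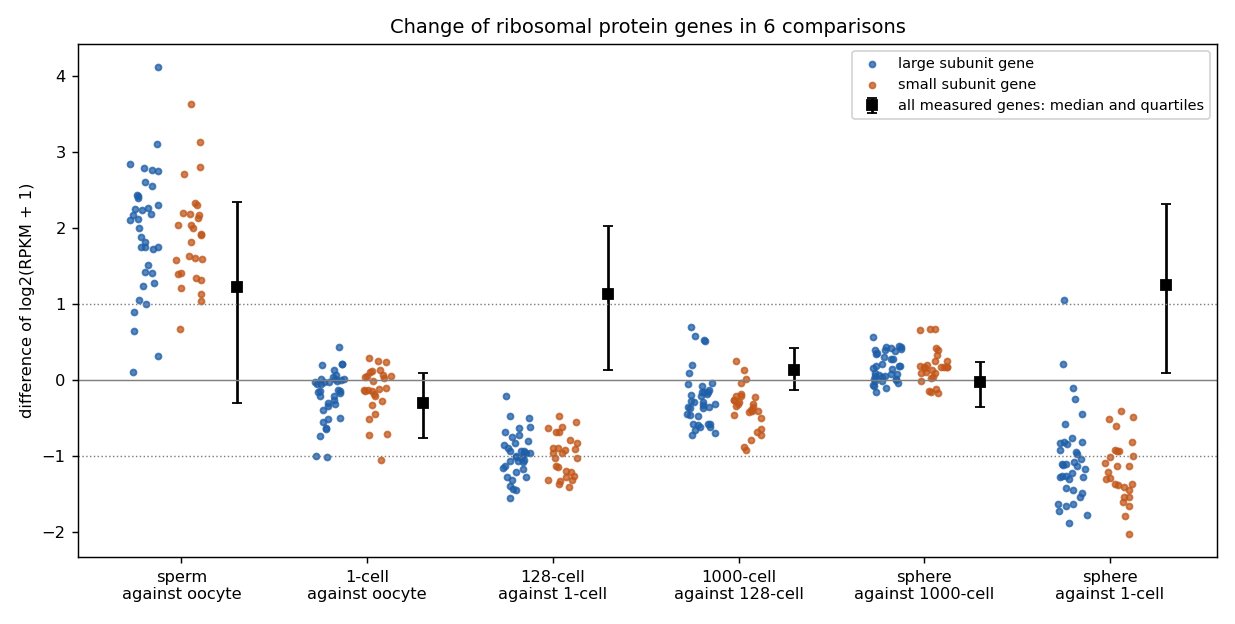
Difference of log2(RPKM + 1) of each member in the 6 comparisons, large subunit genes in blue and small subunit genes in orange, beside the median and quartiles of all measured genes in black; dotted lines mark 2-fold. The members lie above 0 in sperm against oocyte (median 2.001; with median ratio scaling 9 of 65 would lie under 0) and under 0 in 128-cell against 1-cell (median -0.97), where all measured genes have a median of 1.13.

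The 1-cell library was next compared with the oocyte library. Ribosomal protein mRNAs differed little as deposited. Lower by 2-fold or more were 2 of 64 measured members, where 16.8% of the 10373 measured genes were, and 0 were higher by 2-fold, where 2.47% of measured genes were. The median change was -0.13 for the members and -0.30 for all genes. RPS26 (ENSDARG00000030408) had 66.6 RPKM in 1-cell, against 139.6 RPKM in the oocyte, 2.096-fold lower (1.95 to 2.25). RPL4, which lines the exit tunnel, had 42.1 RPKM in 1-cell, against 86.3 RPKM in the oocyte, 2.05-fold lower (1.98 to 2.12), and RPL21 was 2.01-fold lower (1.91 to 2.12), just under the limit on the log2(RPKM + 1) scale. Higher, by less than 2-fold, were RPL12 (1.35-fold higher (1.33 to 1.37)), RPS16 (1.22-fold higher (1.18 to 1.26)) and RPS14 (1.19-fold higher (1.17 to 1.21)). The direction of this small shift depends on scaling. At any size 21 of 64 members were higher as deposited, where 30.9% of measured genes were. With median ratio scaling 61 were higher, where 8022 of all genes were higher and 4137 lower. With that scaling 6 members were higher and 0 lower by 2-fold, and 1870 of all genes were higher and 1193 lower in place of 256 and 1747. The 6 listed epithelial genes, all lower in the 1-cell embryo, moved with the comparison, and their part was not tested.

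Relative to the rest of each library, ribosomal protein mRNAs were lower in the 128-cell embryo than in the 1-cell embryo, while most other genes stood higher in it as deposited. The standard protocol of the library kit captures polyadenylated RNA. Between any of these stages, differences in mRNA amount and in poly(A) tail therefore cannot be told apart. All 64 measured members were lower in the 128-cell embryo, each beyond counting error, and 31 were lower by 2-fold or more. Of the 12336 measured genes, 23.3% were lower at any size, 21.4% beyond counting error and 8.4% by 2-fold, and 54.5% were higher by 2-fold. The median change was -0.97 for the members and 1.13 for all genes. Large subunit genes had a median of -0.98 with 18 of 37 lower by 2-fold, and small subunit genes a median of -0.96 with 13 of 27. RPLP1, an acidic arm of the stalk, had 33.8 RPKM in 128-cell, against 101 RPKM in 1-cell, 2.99-fold lower (2.86 to 3.12). RPLP0, which anchors the stalk, was 2.75-fold lower (2.66 to 2.84) and RPL35, at the tunnel exit, 2.73-fold lower (2.57 to 2.89). The smallest differences were those of RPL4 (1.16-fold lower (1.12 to 1.21)), RPS10 (1.39-fold lower (1.34 to 1.44)) and RPL35A (1.41-fold lower (1.32 to 1.503)).

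RPKM is relative to each library, and scaling by the median ratio of genes shared by all libraries moved the median of all genes in this comparison to -0.16. The members' median was then -2.68, with all 64 lower by 2-fold. By that scaling 3031 of all genes were higher and 4043 lower by 2-fold, in place of 6729 and 1036. In sperm against oocyte 6727 were higher and 4856 lower, in place of 9902 and 2997, and 22 members were higher and 1 lower. In sphere against 1-cell 4456 were higher and 4504 lower, in place of 8008 and 1680. Median ratio scaling divides a whole library by 1 factor, so members and all other genes move nearly alike. It therefore could not test the members' place among all genes. As deposited, the members' median lay below that of all genes in 128-cell against 1-cell and in sphere against 1-cell.

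Most steps of cleavage shared this direction. In 4-cell against 1-cell, however, 37 of 64 members were higher as deposited, where 74.4% of measured genes were. With median ratio scaling 0 members were higher, where 5216 of all genes were higher and 6504 lower. In 64-cell against 16-cell 20 of 65 were higher as deposited, where 38.5% of measured genes were. With median ratio scaling 35 of 64 were higher, where 6176 of all genes were higher and 6014 lower. The members' median of 0.03 then also lay above that of all genes (0.01). Between the 64-cell and the 128-cell embryo all 64 measured members were lower in the later stage, 63 of them beyond counting error, where 32.2% of measured genes were lower at any size and 22% beyond counting error. RPL4, with 36.3 RPKM in 128-cell, against 37.4 RPKM in 64-cell, was the member within counting error. Over the 7 libraries with a stated cell number, 8 members never increased between neighbouring stages, 27 increased once, 23 at 2 steps and 7 at 3 or more. The same counts over all genes are not given here, so these do not set the members apart.

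A limma fit of log2(RPKM + 1) on log2 cell number over these 7 libraries (5 residual degrees of freedom, Benjamini-Hochberg over 12720 genes) gave the only test the design allows. Of the 65 members, 59 fell and 0 rose at an adjusted p under 0.05, where 9.16% of all genes tested fell and 52.7% rose. The members that fell were 32 of 37 large and 27 of 28 small subunit genes, with adjusted p between 0.00168 and 0.0337. The median slope per doubling of cell number was -0.15 for the members and 0.12 for all genes. With median ratio scaling 3362 genes rose and 3682 fell, in place of 6699 and 1165, and all 64 members tested fell. With 1 library per stage, curvature of a gene's course and library differences enter the error of the fit alike. Without the 1-cell library 44 members fell, while of all genes 1567 rose and 448 fell. Without the 16-cell library 62 members fell, while of all genes 8093 rose and 1816 fell. In all, 42 members were called whichever library was left out. The same count over all genes is not given here, so it does not set the members apart.

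The steepest slopes belonged to proteins of several sites. RPLP0, in the stalk, had a slope of -0.22 (SE 0.036, adjusted p = 0.00211). RPS12, in the head of the small subunit, had -0.22 (SE 0.041, adjusted p = 0.0032), and RPL10A, in the flexible stalk on the other side of the large subunit, had -0.19 (SE 0.029, adjusted p = 0.00168). RPS29 and RPL17 followed with -0.19 each, RPS29 no longer past the threshold without the 1-cell library. By limma's adjusted p, 6 members did not pass, among them the following. RPL4 had a slope of 0.01 (SE 0.045, adjusted p = 0.867) and RPL8, near the catalytic centre, -0.05 (SE 0.041, adjusted p = 0.308). RPL35A had -0.08 (SE 0.043, adjusted p = 0.114), RPL21 -0.12 (SE 0.054, adjusted p = 0.0857) and RPL35 -0.13 (SE 0.056, adjusted p = 0.0676). RPL35, RPL21 and RPL35A passed once the 16-cell library was left out, while RPL4 and RPL8 did not.

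**Figure D4:**
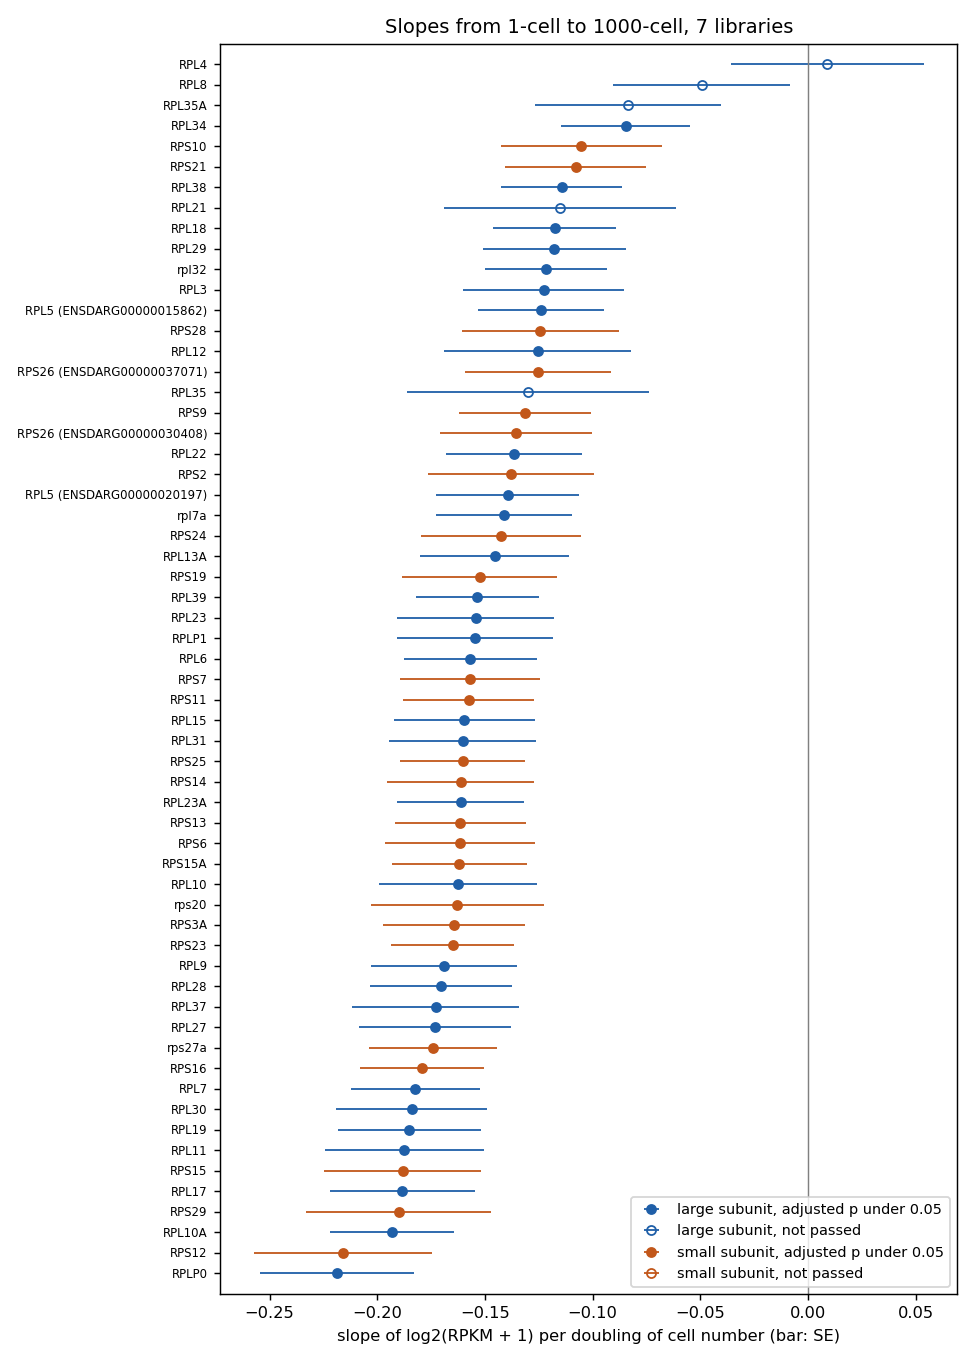
Slope of log2(RPKM + 1) per doubling of cell number for 60 members over the 7 libraries from 1-cell to 1000-cell, with its standard error as a bar; filled points have an adjusted p under 0.05. Of the 60 slopes shown, 55 are filled and all filled ones lie under 0, RPLP0 lowest at -0.22, and RPL4 lies above 0.

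The 16-cell library broke the course of some members. As deposited, 9 of 65 members lay there above both the 4-cell and the 64-cell value, where 56.1% of the 12749 genes measured did. Below both lay 20 members, where 19.9% of those genes did. By median ratio scaling all 64 measured members lay below the 4-cell value, where 5810 of all genes were higher and 6535 lower. RPL35 had 110.2, 210.6 and 64.2 RPKM in the 4-cell, 16-cell and 64-cell libraries, and RPL21 had 80.9, 132 and 46.4 RPKM. RPL4 had 47.4, 75.2 and 37.4 RPKM, and RPL35A, RPL8, RPL3 and RPS9 were also above both neighbours. RPL12 had 887, 319 and 500.4 RPKM in the same 3 libraries, and RPS29 had 555, 214 and 333 RPKM. Among those below both were also RPL37, rps20, RPS15, RPL23, RPS28 and RPS19. The peaks were thus held by 6 large and 3 small subunit genes, and the dips by 9 large and 11 small subunit genes. Gene model length and this excursion had a Pearson r of 0.19 over the 65 members. The 16-cell library is 1 sample, so a stage and a library cannot be told apart.

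From the 128-cell to the 1000-cell embryo most members were again lower, by less. Lower by 2-fold were 0 of 64 members and 0.541% of all measured genes, and higher by 2-fold were 0 members and 3.32% of all genes. At any size 55 of 64 members were lower, where 37.1% of the 12749 measured genes were, with a median of -0.32 against 0.14 for all genes. RPS12 had 94.4 RPKM in 1000-cell, against 180.0 RPKM in 128-cell, 1.91-fold lower (1.84 to 1.98), rps20 was 1.84-fold lower (1.797 to 1.89) and RPS29 1.74-fold lower (1.67 to 1.81). These 3 are small subunit proteins. The members with the highest change were of the large subunit: RPL4 (59.5 RPKM in 1000-cell, against 36.3 RPKM in 128-cell, 1.64-fold higher (1.59 to 1.69)), RPL8 (1.51-fold higher (1.46 to 1.56)) and RPL21 (1.45-fold higher (1.37 to 1.54)). As sets the subunits differed little: large subunit genes had a median of -0.29 with 31 of 37 lower, small subunit genes -0.34 with 24 of 27.

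The sphere embryo, past the onset of zygotic transcription, was compared with the 1000-cell embryo. All 3 listed first zygotic genes were higher in sphere. Of the ribosomal protein genes 0 of 64 were higher or lower by 2-fold, where 9.1% of the 13983 measured genes were higher and 5.23% lower. At any size 51 of 64 were higher, where 47.6% of measured genes were, and beyond counting error 44 were higher and 8 lower, where 38.2% and 43.1% of measured genes were. The median change was 0.16 for the members and -0.03 for all genes. Among the members highest in sphere relative to 1000-cell was RPS26 (ENSDARG00000030408; 49.9 RPKM in sphere, against 30.9 RPKM in 1000-cell, 1.61-fold higher (1.49 to 1.75)). RPS10, RPS2 and RPL34 were lower in sphere, by 1.13-fold, 1.12-fold and 1.12-fold.

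Across the whole embryo series, sphere against 1-cell, 41 of 64 members were lower by 2-fold and 1 was higher, where 12.2% of the 13769 measured genes were lower and 58.2% higher. The median change was -1.13 for the members and 1.25 for all genes. RPS12 had 85.3 RPKM in sphere, against 351 RPKM in 1-cell, 4.12-fold lower (3.97 to 4.27). RPLP0 was 3.74-fold lower (3.61 to 3.88) and RPS29 3.49-fold lower (3.36 to 3.62). The member that went the other way was RPL4, with 88.3 RPKM in sphere, against 42.1 RPKM in 1-cell, 2.09-fold higher (2.02 to 2.17). RPL8 was 1.15-fold higher (1.11 to 1.196), and RPL35A was 1.08-fold lower (1.01 to 1.15). With median ratio scaling RPL4 and RPL8 were lower in sphere too, by log2 differences of -0.75 and -1.60. Taken over only the genes at 1 RPKM or more in every library, that scaling left RPL4 higher in sphere and RPL8 lower. RPL4 was then higher by less than 2-fold.

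By site on the ribosome, the stalk members RPLP0, RPLP1 and RPL12 did not all share a course. The stalk is an arm of the large subunit that recruits elongation factors. RPLP0, its anchor, had 1871 RPKM in sperm, 216 in the oocyte, and 180.1, 167, 143, 91.6, 65.5, 47.5, 51.1 and 48.1 in the 8 embryo libraries from 1-cell to sphere. RPLP1, one of its acidic arms, had 1051 RPKM in sperm, 145 in the oocyte, and 101, 65.6, 59.3, 46.8, 33.8, 31.4, 38.9 and 51.9 in the 8 embryo libraries from 1-cell to sphere. RPL12, a neighbour at the stalk base, had 629.8 RPKM in sperm, 504 in the oocyte, and 681, 887, 319, 500.4, 443, 379.7, 294 and 274 in the 8 embryo libraries from 1-cell to sphere. RPLP0 and RPLP1 thus had a high sperm value and low values in cleavage embryos, while RPL12 was only 1.25-fold higher in sperm than in the oocyte and was highest in the 4-cell library, as deposited. rplp2l is outside the rule and has a symbol close to that of a stalk protein, but its orthology was not checked. It had 1388 RPKM in sperm, 520.0 in the oocyte, and 417, 544, 239.6, 307, 237, 193, 164 and 156 in the 8 embryo libraries from 1-cell to sphere.

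RPL5 and RPL11 bind the small RNA of the large subunit before it joins the ribosome, and in human cells the free complex restrains MDM2 and so stabilises p53. RPL11 had 599.6 RPKM in sperm, 323 in the oocyte, and 354, 366, 173, 209, 168, 109, 109 and 113 in the 8 embryo libraries from 1-cell to sphere. RPL5 (ENSDARG00000015862) had 824 RPKM in sperm, 525 in the oocyte, and 514, 538, 474, 379, 305, 277, 245 and 248 in the 8 embryo libraries from 1-cell to sphere, and RPL5 (ENSDARG00000020197) had 720.4 RPKM in sperm, 106 in the oocyte, and 71.9, 78.4, 49.6, 42.9, 38.3, 30.6, 33.1 and 32.9 in the 8 embryo libraries from 1-cell to sphere. The first copy exceeded the second 1.14-fold in sperm, 4.95-fold in the oocyte and between 6.87-fold (4-cell) and 9.56-fold (16-cell) in embryos. The second copy made up 46.6% of the pair's summed RPKM in sperm, against 16.8% in the oocyte.

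RPS26, a protein at the mRNA exit of the small subunit, also has a pair of gene IDs with different courses. RPS26 (ENSDARG00000030408) had 1235 RPKM in sperm, 139.6 in the oocyte, and 66.6, 71.7, 68.5, 50.6, 35.4, 33.6, 30.9 and 49.9 in the 8 embryo libraries from 1-cell to sphere. RPS26 (ENSDARG00000037071) had 511 RPKM in sperm, 192 in the oocyte, and 166, 159, 132, 96.3, 68.5, 91.9, 81.5 and 86.4 in the 8 embryo libraries from 1-cell to sphere. The first copy was 2.42 times the second in sperm, 0.727 times in the oocyte and between 0.366 times (256-cell) and 0.577 times (sphere) in embryos, so the leading copy differed between sperm and all other libraries. How reads shared by such copies were assigned is not given in the sources used here, so the split within each pair is uncertain.

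The tunnel of the large subunit is lined by RPL4, RPL17 and RPL39, and RPL23A, RPL35, RPL19 and RPL31 ring its exit, where chaperones and the signal recognition particle dock. RPL4 had 466 RPKM in sperm, 86.3 in the oocyte, and 42.1, 47.4, 75.2, 37.4, 36.3, 47.4, 59.5 and 88.3 in the 8 embryo libraries from 1-cell to sphere. RPL35 had 1671 RPKM in sperm, 242 in the oocyte, and 144, 110.2, 211, 64.2, 52.9, 75.5, 76.2 and 96.3 in the 8 embryo libraries from 1-cell to sphere. Of these sites RPL23A kept closest to the median member, with 757 RPKM in sperm, 229.7 in the oocyte, and 208, 168, 141, 111, 84.7, 77.2, 75.5 and 86.1 in the 8 embryo libraries from 1-cell to sphere. RPL4 was the tunnel gene whose level in sphere exceeded its 1-cell level. RPL17, RPL39, RPL19 and RPL31 were all lower in sphere than in the 1-cell embryo, RPL17 with 53.6 RPKM in sphere, against 179 RPKM in 1-cell.

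RPL3, RPL10 and RPL8 reach toward the catalytic centre. RPL8 had 607 RPKM in sperm, 103 in the oocyte, and 65.3, 63.3, 82.7, 44.6, 38.9, 50.5, 58.8 and 75.3 in the 8 embryo libraries from 1-cell to sphere. RPL3 had 1066 RPKM in sperm, 288 in the oocyte, and 263, 265, 308, 163, 138, 135, 146 and 193 in the 8 embryo libraries from 1-cell to sphere, and RPL10, the last of the 3 to join the ribosome, had 476 RPKM in sperm, 177 in the oocyte, and 135, 169, 136, 91.9, 64.04, 62.7, 58.2 and 62.1 in the 8 embryo libraries from 1-cell to sphere. As deposited, RPL8 and RPL3 shared a 16-cell peak with RPL4, which RPL10 lacked. Such a peak was held by 56.1% of the 12749 genes measured there. With median ratio scaling every measured member was lower in the 16-cell than in the 4-cell library. RPL8, RPL3, RPL4 and RPL10 all stood higher in sphere than in the 1000-cell embryo.

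On the small subunit, RPS2, RPS15 and RPS23 lie along the mRNA path and the decoding site. RPS2 had 1732 RPKM in sperm, 395 in the oocyte, and 276, 314, 217, 211, 177, 99.2, 139.8 and 125 in the 8 embryo libraries from 1-cell to sphere. RPS23, at the decoding site, had 1119 RPKM in sperm, 442 in the oocyte, and 399.6, 369, 239, 231, 181, 156, 137 and 150.0 in the 8 embryo libraries from 1-cell to sphere, and by limma it fell along cell number with a slope of -0.17 (SE 0.029, adjusted p = 0.00246). RPS2 was the member with the largest decrease between neighbours from 128-cell to 256-cell, with 99.2 RPKM in 256-cell, against 177 RPKM in 128-cell, and it was higher again in the 1000-cell embryo.

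The head of the small subunit holds RPS10, RPS12, RPS19 and rps20, among others. RPS12 had 779 RPKM in sperm, 297 in the oocyte, and 351, 432, 263, 268, 180.0, 108, 94.4 and 85.3 in the 8 embryo libraries from 1-cell to sphere. In the same region, rps20 had 1156 RPKM in sperm, 725 in the oocyte, and 734, 941, 431, 569.9, 479.7, 307, 261 and 239.6 in the 8 embryo libraries from 1-cell to sphere. RPS12 and rps20 were both lowest in sphere. RPS19, the gene most often mutated in human Diamond-Blackfan anaemia, had 707 RPKM in sperm, 201 in the oocyte, and 184, 186, 91.6, 122, 94.01, 71.8, 68.3 and 70.2 in the 8 embryo libraries from 1-cell to sphere. RPS6, the substrate of the S6 kinases downstream of TOR, had 1574 RPKM in sperm, 239 in the oocyte, and 189.5, 226, 182, 132, 99.8, 81.2, 79.7 and 107 in the 8 embryo libraries from 1-cell to sphere. rps27a, whose protein is made as a fusion with ubiquitin, had 1304 RPKM in sperm, 317 in the oocyte, and 293, 269, 194, 169, 117, 108, 101 and 126 in the 8 embryo libraries from 1-cell to sphere and kept an r of 0.998 with the median profile.

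Measured by the range over libraries of its log2 distance from the median member, RPL35A departed most from the shared course (2.82). Also among the 10 widest were RPL12 (2.57), RPL29 (2.40), RPL4 (2.33), RPS26 (ENSDARG00000030408; 2.27), RPLP0 (2.05), RPL35 (1.96) and RPLP1 (1.95). RPL35A had 741 RPKM in sperm, 41.9 in the oocyte, and 26.8, 26.1, 39.5, 20.9, 18.96, 15.8, 18.2 and 24.9 in the 8 embryo libraries from 1-cell to sphere. RPL29 had 829 RPKM in sperm, 769.6 in the oocyte, and 882, 760.5, 418, 480.0, 459.7, 444, 376 and 366 in the 8 embryo libraries from 1-cell to sphere. Both departures lay mainly in the sperm library, upward for RPL35A and downward for RPL29, while that of RPL4 lay between the 1-cell embryo and sphere. Genes of large and small subunit were both among the 10, with 7 of the large and 3 of the small one.

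**Figure D5:**
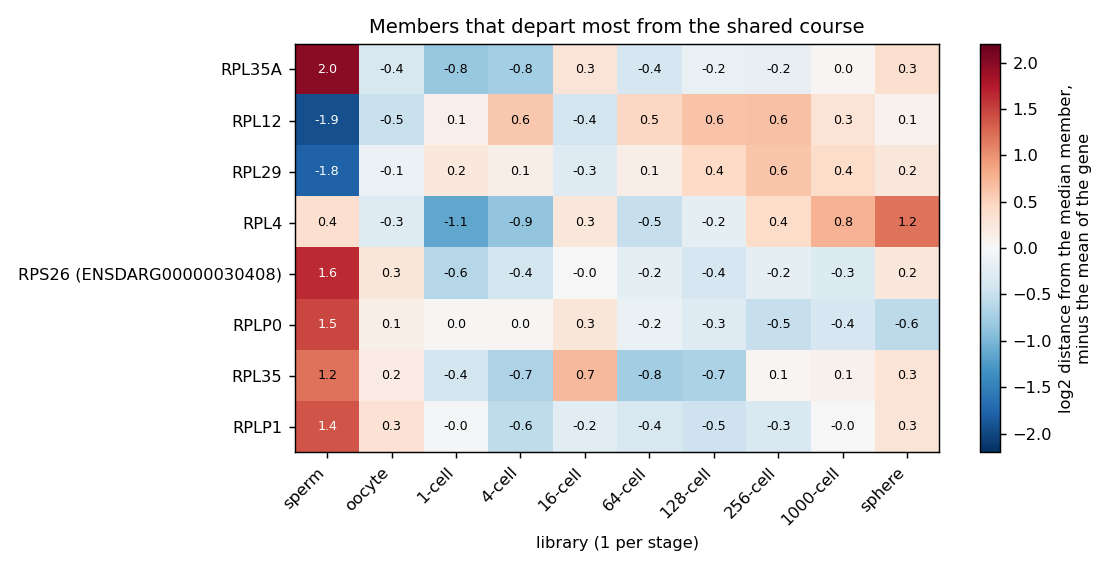
Of the 10 members with the widest departure from the shared course, 8 are drawn, as log2 distance from the median member in each library minus the mean of that gene over the 10 libraries (colour and printed value). RPL35A, RPS26 (ENSDARG00000030408), RPLP0, RPLP1 and RPL35 are reddest in sperm, RPL12 and RPL29 are bluest there, and RPL4 is reddest in sphere.

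Genes left out by the rule divided. RPL36AL, rps27.1, rps27.2 and RPL22L1, with symbols close to those of ribosomal proteins, fell along cell number by limma, with slopes between -0.17 and -0.12, though RPL22L1 passed in no fit that left out a library other than the 16-cell one. RPL7L1 and rsl1d1, known as ribosome assembly proteins rather than ribosome parts, rose, with slopes of 0.38 (SE 0.062, adjusted p = 0.00203) and 0.47 (SE 0.075, adjusted p = 0.00197). RPL7L1 had 90.05 RPKM in sperm, 7.24 in the oocyte, and 3.400, 6.299, 35.4, 18.9, 32.4, 46.9, 63.9 and 96.4 in the 8 embryo libraries from 1-cell to sphere. RACK1, a small subunit scaffold protein, had 1779 RPKM in sperm, 778 in the oocyte, and 902, 1408, 718, 787, 673, 403, 373 and 339.8 in the 8 embryo libraries from 1-cell to sphere and fell (-0.16 (SE 0.042, adjusted p = 0.0106)), with a limma adjusted p of 0.0615 once the 1000-cell library was left out.

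Other genes of ribosome supply and translation divided. By the same limma fit, 38 of 45 ribosome assembly factors rose and 0 fell (28 and 4 with median ratio scaling), such as nop16 (0.55 (SE 0.059, adjusted p = 0.00121)) and DKC1, a pseudouridine synthase for ribosomal RNA (0.56 (SE 0.093, adjusted p = 0.00225)). EIF6, which keeps new large subunits from joining, had -0.08 (SE 0.032, adjusted p = 0.0551) and urb1 -0.01 (SE 0.041, adjusted p = 0.865). Of the RNA polymerase I genes 6 of 11 rose and 0 fell (2 and 1 with that scaling). Of the TOR and TOP control genes 11 of 16 rose and 0 fell (6 and 4 with that scaling), among them MTOR (0.12 (SE 0.033, adjusted p = 0.0127)) and cnbpa, which encodes a binder of TOP mRNAs (0.49 (SE 0.045, adjusted p = 0.00103)). Of the initiation factors 7 of 24 rose and 1 fell, EIF3M (-0.13 (SE 0.034, adjusted p = 0.0095)), where that scaling gave 3 and 11. Of the elongation factors 1 of 8 rose, gspt1 (0.22 (SE 0.051, adjusted p = 0.00625)), and 1 fell, EEF1B2 (-0.15 (SE 0.035, adjusted p = 0.00569)), where that scaling gave 1 and 6. Of the mitochondrial ribosomal proteins 28 of 63 rose and 7 fell (21 and 20 with that scaling), with a median slope of 0.11. These counts stand beside 52.7% rising and 9.16% falling among all genes tested. They rest much on the 1-cell library, as does the count over all genes, of which 1567 of 12668 rose without that library. Without it 14 of 45 assembly factors, 1 of 11 RNA polymerase I genes, 5 of 16 TOR and TOP genes, 2 of 24 initiation factors, 0 of 8 elongation factors and 3 of 63 mitochondrial ribosomal proteins rose, and MTOR and gspt1 no longer passed (limma, adjusted p = 0.129 and 0.0986). MTOR also missed the threshold without the 1000-cell library (adjusted p = 0.0504). Without the 16-cell library 11 initiation factors rose and 3 fell, and 2 elongation factors rose and 3 fell.

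Among 5519 genes with a symbol and a mean of at least 10 RPKM, profiles over the 10 libraries were compared with the members' mean profile. Most like it were rps27.1 (Pearson r 0.989), RPL36AL (0.987), RPSA2 (0.983), atp5mc3b (0.980) and RPS4Y2 (0.977), given as a description over 10 libraries. All but atp5mc3b are genes outside the rule with symbols close to those of ribosomal proteins. atp5mc3b, a subunit of the mitochondrial ATP synthase, had 482 RPKM in sperm, 183 in the oocyte and 126, 139.5, 99.0, 74.9, 54.0, 46.3, 56.6 and 68.1 from 1-cell to sphere.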

How the data were processed

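RNA from gametes and embryos was isolated with TRIzol, turned into libraries by the TruSeq RNA v2 kit, whose standard protocol captures polyadenylated RNA, and sequenced as single reads of 50 bp on a HiSeq2000, per the labels' protocols. The authors deposited RPKM values in 1 table with 1 column per library. TopHat2 2.0.9 and the genome build Zv9 are listed, per the submitters' processing notes; the counting tool, annotation, strand setting and handling of multiply mapped reads are among what is not given in the sources used here. Because close paralogues share reads, their levels depend on that treatment, and because RPKM divides by gene length and library reads, a level depends on the gene model and on all other genes of the library.

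Whole reads and gene lengths were worked back from the ratios between libraries for 26477 of 32574 genes (99.9% of those above 0 in at least 2 libraries), with 99.2% of values above 0 whole within 0.02 reads. Recovery was tested on simulated data. Reads ranged between 37762530 and 113972795 per library. They are not unique molecules, and intervals are exact 95% Clopper-Pearson intervals for counting error only.

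Each stage is a group of 1 library, and whether libraries came from separate clutches is not stated. In 6 comparisons a gene was measured when it reached 1 RPKM in either library, and its change, taken on log2(RPKM + 1), was called at 2-fold (a difference of 1), without a p-value. A member that passed this filter through only its higher library was counted with the rest. The trend used limma 3.58.1 in R 4.3.3 (lmFit, eBayes with trend) over genes that reached 1 RPKM in 2 or more of 7 libraries, Benjamini-Hochberg adjusted.

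Symbols came from a name table that covers 20901 genes; 9 further IDs that fit the rule are not analysed here. The members, lists and tests were chosen with earlier results of these data known. Named members are the 6 highest and 6 lowest by mean level, the 10 with the widest departure, the 3 at each end of a comparison, the 5 at each end of the slopes, same-symbol pairs and those of named ribosome sites; other members named beside a site, a step or a 16-cell peak were chosen after their values were seen. Some members enter all fits, counts and medians but are not reported singly here. Alternatives were other pseudocounts (0.1 and 5 RPKM), filters, 4-fold, median ratio scaling, stage rank, members with their own symbol, the 4-cell for the 1-cell library, and each library left out.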

Additional observations from a re-analysis of the deposited data

How the results depend on the processing

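The trend gave 58 to 64 falling members under the other scalings, filters, pseudocounts and fits, 54 of 59 for members with a symbol of their own, and 44 to 62 with each library left out in turn (44 without the 1-cell library). Median ratio scaling gave 23 members past 2-fold in sperm against oocyte, 6 in 1-cell against oocyte (all higher) and 64 in 128-cell against 1-cell. That scaling gave 2 in 1000-cell against 128-cell, where 210 of all genes were higher and 127 lower by 2-fold. By it 9 members turned lower in sperm than in the oocyte, among them RPL29 (-1.08), RPL12 (-0.87), RPL5 (ENSDARG00000015862; -0.54), rps20 (-0.52), RPL11 (-0.30), RPS14 (-0.15), RPL23 (-0.14) and RPS28 (-0.062), and RPL4 turned lower in sphere than in the 1-cell embryo (-0.75), with a slope of -0.16 (limma, adjusted p = 0.0187). Scaling over only the 7305 genes at 1 RPKM or more in every library, chosen after seeing the data, gave 61 members in sperm against oocyte, 0 in 1-cell against oocyte, and 64 in 128-cell against 1-cell. The same counts over all genes are not given here for that scaling, so these do not set the members apart. By it RPL29, RPL12 and RPL5 (ENSDARG00000015862) stayed higher in sperm than in the oocyte. RPL4 stayed higher in sphere than in the 1-cell embryo, by less than 2-fold. At 4-fold 33 members were called in sperm against oocyte, all higher, where 5463 of 17364 genes were higher and 1577 lower. In 1-cell against oocyte 0 were called, where 110 of 10373 genes were higher and 353 lower. In 128-cell against 1-cell 0 were called, where 3174 of 12336 genes were higher and 300 lower. In sphere against 1-cell 1 was called, as lower, where 4320 of 13769 genes were higher and 623 lower. In 1-cell against oocyte a pseudocount of 5 RPKM gave 1 member, as did the members with a symbol of their own. The large over small subunit ratio, 1.07 as the median over libraries, was 0.782 by medians. The share of the RPKM total, 2.51% as the median over libraries, was 2.59% without the mitochondrial genome and 2.34% for members with a symbol of their own. The members' recovered reads were 1.04% of the library size behind the RPKM values, also as the median over libraries. The cause of these shifts was not tested. No paired analysis was possible because every group holds replicate 1 only. Depth limits low genes most; the members named here had at least 845 reads in every library.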
